A study of Homo sapiens with 12 samples.

Results

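The genes described here are the splicing regulators of 3 families named by symbol: heterogeneous nuclear ribonucleoproteins (HNRNP), serine and arginine rich splicing factors (SRSF) and RNA-binding motif proteins (RBM). They were taken from the gene table by symbol alone, HNRNP followed by a letter or SRSF or RBM followed by a digit, with entries described as pseudogenes, antisense genes and the RBMY genes left out. Of 24528 genes, 81 matched the symbols, 2 were left out as pseudogenes and 4 as antisense genes, and 75 remained, 25 HNRNP, 12 SRSF and 38 RBM genes. Of these, 69 had enough counts to be tested (21 HNRNP, 12 SRSF and 36 RBM). RNA was sequenced from MIA PaCa-2 cells, an established human pancreatic carcinoma line, and every group is this 1 line. There were 4 groups of 3 libraries: cells given a scrambled control shRNA, an shRNA against MSI1 (the Msi1 knockdown, from a virus with a GFP tag), an shRNA against MSI2 (the Msi2 knockdown, from a virus with a Tomato Red tag), or both (the double knockdown). All cells carried lentivirus for 72 hours and were sorted on fluorescence before RNA was taken, the double knockdown as cells positive for both tags. The sources used here do not give the tag and gate of the control cells or the shRNA sequences, and nothing says that replicates were separate cultures, so p-values measure the spread between these libraries, which may be technical.

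Pre-mRNA splicing joins exons in the nucleus, and which exons are joined is set largely by RNA-binding proteins. SR proteins (SRSF) bind exonic enhancers and mostly favour inclusion of the exon, hnRNPs coat nascent transcripts and often favour skipping, and RBM proteins are a mixed group joined by the RNA recognition motif, with members in the spliceosome, the exon junction complex, RNA methylation, RNA decay and the nucleolus. Many of these genes control their own mRNA through a poison exon that sends the transcript to nonsense-mediated decay. MSI1 and MSI2 encode the Musashi proteins, RNA-binding proteins that act on stability and translation of mRNAs, mainly through short UAG-containing sites in the 3′ UTR, and are studied in pancreatic cancer as stem cell factors.

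The promoters of the 5 genes that each changed in the same direction in all 3 knockdown groups are printed first. The 3 comparisons share the same control libraries, so agreement among them is not independent. Each line gives 300 bases on the gene's strand, from 250 before to 50 after the RefSeq start (build GRCh38.p14), and capitals mark matches on either strand to 5 promoter motifs, the GC box (GGGCGG), an ETS site (CCGGAAG), the CCAAT box (CCAAT), the E-box (CACGTG) and the YY1 core (ATGGCGG). The first 3 genes rose in every knockdown and the other two fell.
HNRNPAB, chr5:178204283-178204582, plus strand: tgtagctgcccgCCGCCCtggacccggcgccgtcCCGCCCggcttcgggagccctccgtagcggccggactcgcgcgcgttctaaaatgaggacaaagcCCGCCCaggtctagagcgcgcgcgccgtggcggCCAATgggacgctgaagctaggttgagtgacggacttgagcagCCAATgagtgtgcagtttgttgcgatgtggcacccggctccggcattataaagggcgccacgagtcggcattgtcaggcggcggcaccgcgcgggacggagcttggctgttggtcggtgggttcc
RBM15B, chr3:51391035-51391334, plus strand: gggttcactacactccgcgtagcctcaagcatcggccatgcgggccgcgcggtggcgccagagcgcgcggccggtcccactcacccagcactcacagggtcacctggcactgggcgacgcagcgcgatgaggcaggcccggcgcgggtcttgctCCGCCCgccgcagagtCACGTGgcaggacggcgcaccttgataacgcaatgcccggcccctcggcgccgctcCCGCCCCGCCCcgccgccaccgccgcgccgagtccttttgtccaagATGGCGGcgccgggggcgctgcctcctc
RBM12, chr20:35664851-35665150, minus strand: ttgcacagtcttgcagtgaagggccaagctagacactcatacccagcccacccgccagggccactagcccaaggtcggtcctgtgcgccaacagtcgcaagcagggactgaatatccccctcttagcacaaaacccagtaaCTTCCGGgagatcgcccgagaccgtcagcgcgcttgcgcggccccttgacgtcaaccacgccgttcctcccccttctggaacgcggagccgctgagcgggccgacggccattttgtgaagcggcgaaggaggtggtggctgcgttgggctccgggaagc
HNRNPH2, chrX:101407972-101408271, plus strand: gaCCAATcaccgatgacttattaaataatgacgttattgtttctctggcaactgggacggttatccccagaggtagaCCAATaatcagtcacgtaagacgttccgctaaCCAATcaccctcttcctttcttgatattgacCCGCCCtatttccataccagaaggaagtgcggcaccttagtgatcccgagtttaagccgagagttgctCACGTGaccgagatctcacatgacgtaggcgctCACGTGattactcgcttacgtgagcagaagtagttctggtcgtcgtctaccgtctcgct
RBM4B, chr11:66677838-66678137, minus strand: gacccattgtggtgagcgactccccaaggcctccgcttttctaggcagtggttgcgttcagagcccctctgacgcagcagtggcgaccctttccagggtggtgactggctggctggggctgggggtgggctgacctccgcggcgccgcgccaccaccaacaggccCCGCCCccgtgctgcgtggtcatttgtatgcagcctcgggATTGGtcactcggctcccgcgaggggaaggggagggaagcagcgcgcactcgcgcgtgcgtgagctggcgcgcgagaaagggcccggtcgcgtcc
No 1 of the 5 motifs was in all 5 promoters. HNRNPAB had 3 GC boxes and 2 CCAAT boxes, RBM15B had 3 GC boxes (2 of them overlapping), 1 E-box and 1 YY1 core, and RBM12 had 1 ETS site and no GC box. HNRNPH2 had 3 CCAAT boxes, 2 E-boxes and 1 GC box, and RBM4B had 1 GC box and 1 CCAAT box. Of the 69 tested splicing regulators, 63 had a promoter in the RefSeq table, and 54% of those held a CCAAT box, against 36.3% of the 11874 promoters of all tested genes in it. The GC box was in 63.5% and 67.7%, the ETS site in 20.6% and 18.1%, the E-box in 15.9% and 9.77% and the YY1 core in 12.7% and 9.68%, in the same order. These are matches of letters in 1 window, given as a description.

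Sites of the kind Musashi proteins bind were counted in the 3′ UTR as GUAGU or AUAGU on the sense strand, in 1 transcript per gene (the longest coding transcript in GENCODE 29, build GRCh38). The windows below show 1 match, in capitals, from each of 3 genes that moved in all knockdowns and from the pair of splicing regulators that stood out for the density of matches, with the position counted from the first base of the 3′ UTR.
RBM12, position 1028 of 3599: ucuuuguuagcaGUAGUaguauagaauaa
RBM15B, position 733 of 3836: uucagcagcuguGUAGUcuuguacaagga
RBM4B, position 368 of 590: uaaaaugaccauGUAGUggcaagcagccu
SRSF11, position 1009 of 2247: uguguuacugcaGUAGUaaucuuaugcac
RBM45, position 202 of 265: aaaacgaauauaGUAGUuguuccuuagag
RBM12 held 12 matches, counting overlapping ones, RBM15B held 5 and RBM4B held 1. HNRNPAB and HNRNPH2, the largest called rise and fall with Msi1 knockdown, held none in 3′ UTRs of 540 and 795 bases. SRSF11 held 15 matches (6.68 per kb) and RBM45 held 3 (11.3 per kb), at percentiles 99.3 and 99.9 of all tested genes. Over 67 splicing regulators with a 3′ UTR of at least 200 bases, 79.1% held a match and the median was 1.90 per kb, against 66.3% and 1.07 per kb over 11653 genes. Across genes, the density of matches and the log2 change against control had a Spearman rho of 0.001 for Msi1, -0.177 for Msi2 and -0.121 for the double knockdown over the splicing regulators, and of -0.051, -0.066 and -0.074 over all genes. The genes share the same 12 libraries, so these are descriptions without a test.

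Library totals ran from 10.9 to 56.1 1e6 estimated counts. Levels are given as CPM, counts per 1e6 of the library total after scaling with edgeR's TMM factors, and a change is called where edgeR's quasi-likelihood test gave an adjusted p below 0.05 over all 15021 genes tested. Log2 changes are given ± SE and group levels as mean ± SD of 3 libraries. MSI1 was low, at 4.93, 4.53 and 4.13 CPM in the control libraries. It changed by -1.33 on the log2 scale with Msi1 knockdown (adjusted p = 1.46e-06) and by -1.42 with both (3.71e-07). With Msi2 knockdown MSI1 was called higher, at 0.41 (0.0244). MSI2 changed by -2.46 with Msi2 knockdown (3.77e-13), by -2.81 with both (4.93e-14) and also by -0.61 with Msi1 knockdown (6.82e-06). No 2 libraries of a group agreed within sampling noise (chi-square per degree of freedom 3.70 to 37.4). A first component of the within-group differences, called the library trend below, took 54.1% of the variance inside groups, and the double-knockdown libraries scored -1.54, -1.32 and -1.06 on it while the other 9 scored from -0.39 to 1.38. The trend therefore cannot be told apart from the double knockdown by these libraries. Calls against control that a fit with the trend as a covariate ended or added are given with the genes concerned. The trend was taken from the within-group differences of these same libraries, so that fit removes part of the spread it is tested against. Its adjusted p-values can therefore be too small, and the calls it added are given as a description. Of the line's own markers KRT8, KRT18 and VIM were abundant (VIM mean 5866 CPM in control) and EPCAM and CDH1 were below 1 CPM in every group's mean. Of markers of other cells, CD3E and INA were at 0 in all libraries, the 3 acinar genes summed to at most 0.109 CPM, the 5 blood genes rose from 15.5 to 17.8 CPM in control to between 34.4 and 50.05 CPM in the knockdowns through CD68, the 4 endothelial genes from 7.23 to 8.36 CPM to between 13.1 and 34.5 CPM through CDH5, and the 6 fibroblast genes summed to between 549 and 887 CPM in all libraries, through COL1A2 and COL3A1. Their part in the results was not tested.

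Together the 75 genes took between 1.29% and 1.43% of all counts in each library. Compared per length of transcript, in CPM per kb, the most abundant in control were HNRNPA1, which represses exons and shuttles mRNA (585 ± 28.1, SD, n = 3), HNRNPC, which binds uridine tracts (456 ± 30.9), HNRNPA2B1, an A/B-type hnRNP (423 ± 2.45), and HNRNPH1, which binds guanosine runs (371 ± 31.9). HNRNPK, which binds cytidine-rich RNA (290.1 ± 16.4), SRSF1, the prototype SR protein (287 ± 12.4), and HNRNPA3 (271 ± 8.50) followed, and these 3 did not differ beyond their spread. A gap then led to SRSF9 (141 ± 5.52), RBM39 (138 ± 10.1) and RBM3, the cold-inducible protein (136 ± 3.62), which overlapped each other. The first RBM gene stood at rank 9 of 69, and of the 40 lowest genes all but HNRNPUL2, HNRNPA0, HNRNPLL, SRSF8, HNRNPA1L2 and SRSF12 were RBM genes. At the bottom, RBM44 (0.138 ± 0.0301), SRSF12 (0.124 ± 0.0492) and the heart splicing factor RBM20 (0.0974 ± 0.00384) were near detection, below RBM14-RBM4, a readthrough gene (1.61 ± 0.581). The lengths are those of the chosen GENCODE transcript, which may not be the isoform these cells use.

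**Figure D1:**
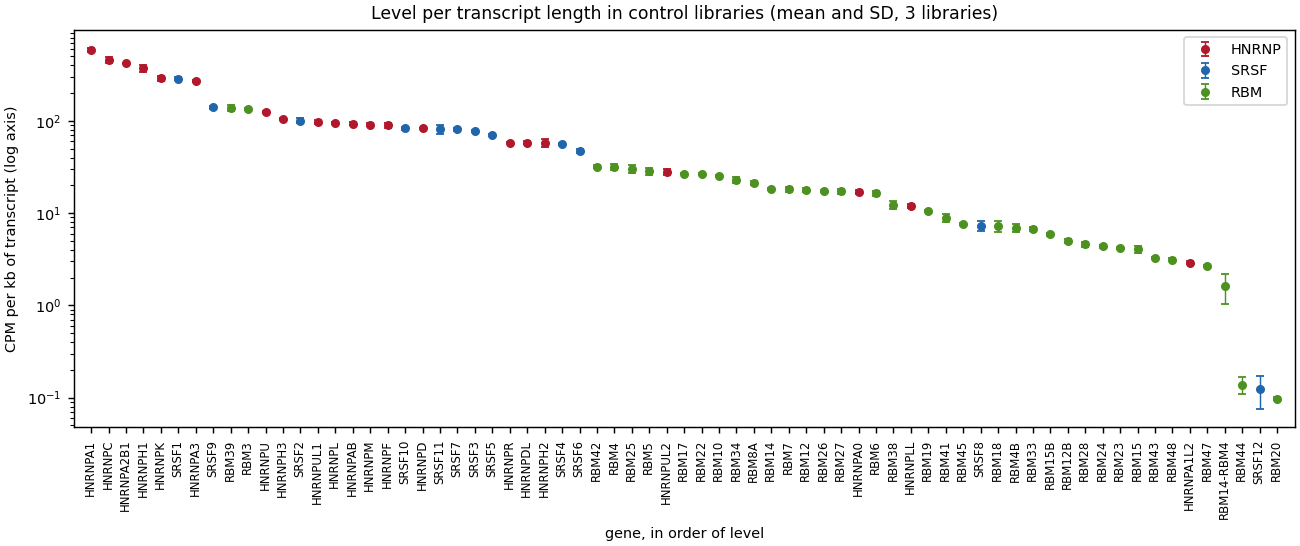
Level of each of the 69 splicing regulators with a chosen transcript in control libraries, as CPM per kb of transcript on a log axis (points, mean; bars, SD of 3 libraries; colours, family), in order of level. HNRNP and SRSF genes lie mostly at the upper end, led by HNRNPA1 at 585, and RBM44, SRSF12 and RBM20 lie far below the rest.

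Each knockdown was compared with control to ask which splicing regulators change in RNA level when Musashi proteins are reduced. With Msi1 knockdown 8 of the 69 were higher (11.6%) and 11 lower (15.9%), where over all tested genes 18.5% were called higher and 20.9% lower. With Msi2 knockdown 5 were higher (7.25%) and 17 lower (24.6%), against 16.7% and 13.6% over all genes. With both, 21 were higher (30.4%) and 15 lower (21.7%), against 26.6% and 25.3%. The shares in the double knockdown were thus near those of all genes, and those with Msi1 knockdown were below them in both directions, while with Msi2 knockdown the share of lower calls was above that of all genes. Changes were small: the median absolute log2 change was 0.10, 0.11 and 0.21 in the 3 comparisons, against 0.23, 0.18 and 0.28 over all genes, and the signed medians were -0.014, -0.056 and 0.035, against -0.0018, -0.0021 and -0.015. These medians were not matched for level: 64 of the 69 and 10778 of the 15021 genes reached 5 CPM in at least 3 libraries. A change of 2-fold or more was called for 1 splicing regulator, HNRNPAB in the double knockdown, where 4.79% of all genes passed that size. In these bulk libraries less RNA per cell and fewer cells with the RNA cannot be told apart.

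By family, the HNRNP genes had 1 rise and 4 falls with Msi1 knockdown, 1 and 4 with Msi2 knockdown and 9 and 4 with both, of 21. The 12 SRSF genes had 1 and 1, then 0 and 5, then 2 and 3. The 36 RBM genes had 6 and 6 (16.7% each), then 4 and 8 (11.1% and 22.2%), then 10 and 8 (27.8% and 22.2%). Of all genes 18.5% and 20.9% were called higher and lower with Msi1 knockdown, 16.7% and 13.6% with Msi2 knockdown and 26.6% and 25.3% with both. Across the 3 comparisons 3 genes rose in all, 2 fell in all and 14 were called in none. The shares of all genes with these patterns were not computed, so whether these counts are many or few is not known. Some counts moved when 1 library was left out, and so did the shares of all genes. The 11 falls with Msi1 knockdown became 7 without control 1 or without Msi1 knockdown 2, against 14.3% and 15.8% of all genes. The 17 falls with Msi2 knockdown became 11 without control 1, against 8.95% of all genes. The 5 rises with Msi2 knockdown became 3 without control 2, against 13.7% of all genes. With the library trend as a covariate 14 were higher and 15 lower with Msi1 knockdown, where the shares of all genes were 20.9% and 21.9%, so the members' shares were then near them. With Msi2 knockdown the fit gave 6 and 24, against 23.1% and 19.5% of all genes. With both it gave 8 and 15, against 20.2% and 18.6%, so the share of rises fell below that of all genes. In the 3 comparisons this fit ended 1, 0 and 17 calls of splicing regulators and added 11, 8 and 4. With every library thinned to the smallest total, 10948191 counts, the 21 became 13 and the 11 falls with Msi1 knockdown became 5. Calls were lost over all genes too, with 11.1% lower with Msi1 knockdown in thinned libraries, down from 20.9%.

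**Figure D2:**
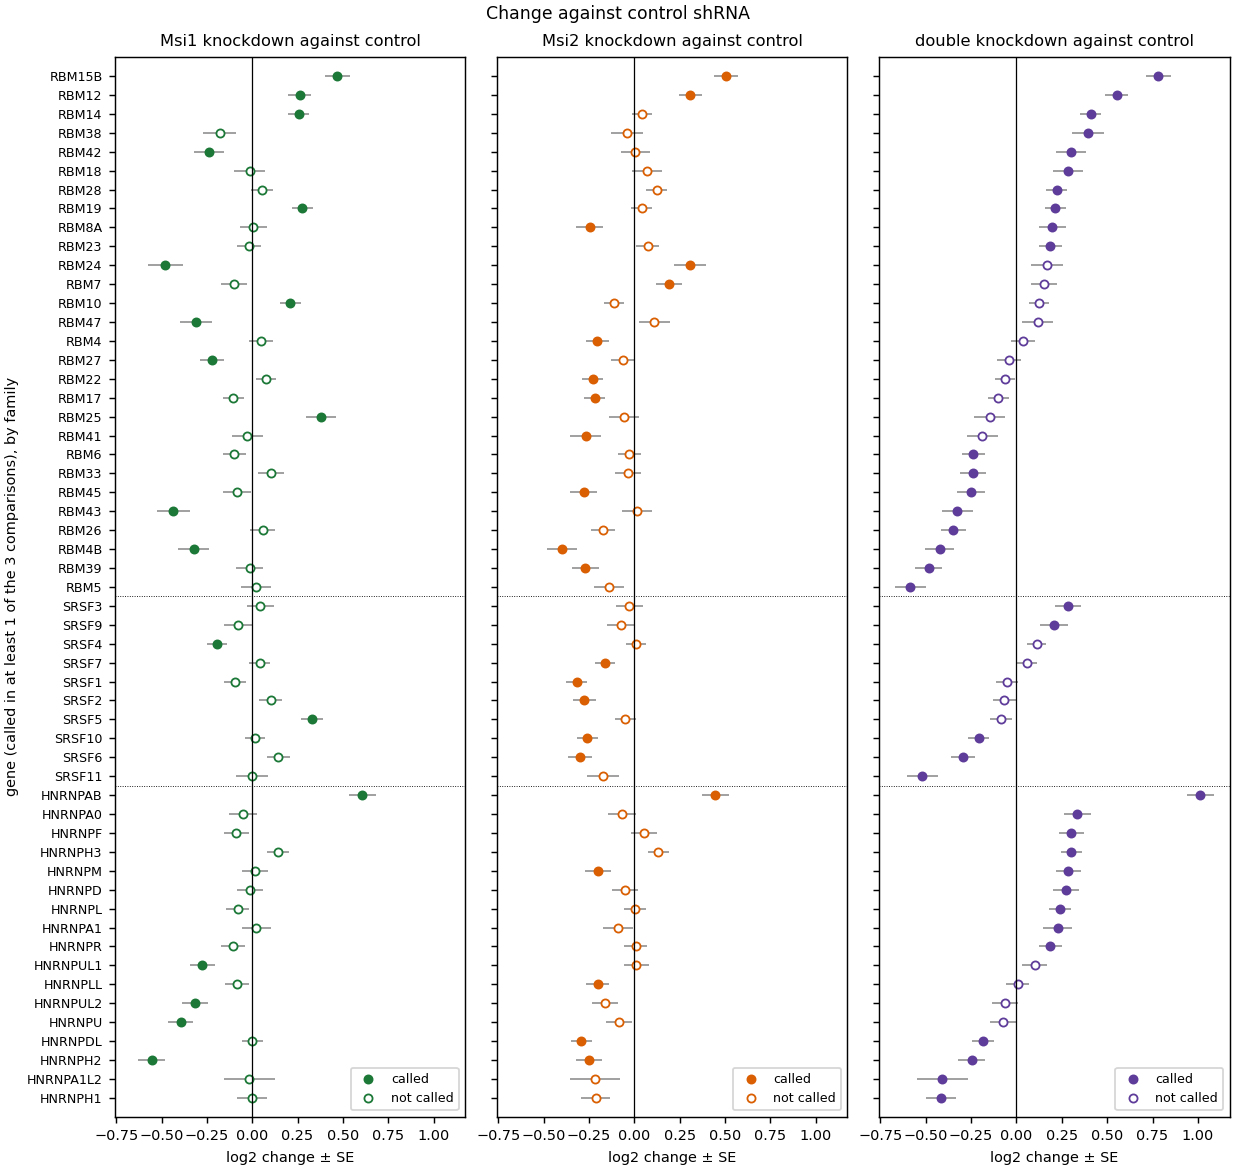
Log2 change against control (points, edgeR estimate; bars, SE) for the splicing regulators called in at least 1 of the 3 comparisons, one panel per knockdown, RBM genes above, SRSF genes in the middle and HNRNP genes below, ordered by the change in the double knockdown. Filled points passed an adjusted p below 0.05, and HNRNPAB, at 1.01 in the double knockdown, lies farthest from 0.

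HNRNPAB, an A/B-type hnRNP that packages and transports mRNA, was the splicing regulator with the largest change. It was at 170.4, 162 and 172 CPM in the control libraries, 280.5, 247 and 241 CPM with Msi1 knockdown, 228, 213 and 247 CPM with Msi2 knockdown and 357, 342 and 319 CPM with both. Every knockdown library lay above every control library, and the double-knockdown libraries lay above all single-knockdown ones. The log2 change was 0.61 ± 0.073 with Msi1 knockdown (1.52-fold, adjusted p = 2.13e-06), 0.45 ± 0.073 with Msi2 knockdown (1.36-fold, 0.000119) and 1.01 ± 0.073 with both (2.02-fold, 3.10e-09). The double knockdown was also above each single one, by 0.41 ± 0.072 against Msi1 knockdown (adjusted p = 0.000144) and 0.57 ± 0.072 against Msi2 knockdown (8.01e-06), and it differed from the sum of the single changes by -0.040 ± 0.10 (0.778). Fitted with the trend as a covariate, HNRNPAB changed by 0.81 (adjusted p = 2.84e-13) in the double knockdown. That fit left it above Msi2 knockdown by 0.33 (adjusted p = 0.00022) and not called against Msi1 knockdown, at 0.078 (adjusted p = 0.656). In that fit the difference from the sum was called, at -0.41 (adjusted p = 0.00562).

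RBM15B and its relative RBM15 bring the RNA adenosine methylation complex to its targets. RBM15B was at 40.1, 37.2 and 40.1 CPM in the control libraries, 56.2, 51.6 and 54.3 CPM with Msi1 knockdown, 57.1, 51.5 and 57.6 CPM with Msi2 knockdown and 72.0, 64.6 and 64.7 CPM with both. No knockdown library reached down to the control range. Its log2 changes were 0.47 ± 0.069 (adjusted p = 2.11e-05), 0.51 ± 0.068 (1.50e-05) and 0.78 ± 0.068 (3.34e-08) with Msi1, Msi2 and double knockdown. RBM15 itself was not called in any of the 3, at -0.19, 0.061 and -0.0086. RBM12, an RNA recognition motif protein of little known function, was at 117, 113 and 125 CPM in the control libraries, 152, 134 and 139 CPM with Msi1 knockdown, 149.6, 139.5 and 150.3 CPM with Msi2 knockdown and 174, 177 and 169 CPM with both. All 9 knockdown libraries were again above the 3 control libraries, and its log2 changes were 0.26 ± 0.064 (0.00274), 0.31 ± 0.063 (0.000981) and 0.55 ± 0.063 (9.67e-07). For both genes the double knockdown exceeded each single knockdown, by 0.31 and 0.28 for RBM15B and by 0.29 and 0.24 for RBM12 (largest adjusted p of the 4 = 0.00379). With the trend as a covariate these 4 differences were between 0.064 and 0.11 and none was called (smallest adjusted p = 0.35), while the rises against control stayed called in all 3 knockdowns.

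RBM4B, a close copy of the splicing and translation regulator RBM4, was lower in all knockdowns, at 18.1, 15.2 and 15.5 CPM in the control libraries, 12.7, 14.0 and 12.6 CPM with Msi1 knockdown, 12.6, 12.6 and 12.1 CPM with Msi2 knockdown and 11.7, 12.9 and 12.2 CPM with both. The control libraries were the 3 highest of the 12, and the knockdown groups overlapped each other. Its log2 changes were -0.32 ± 0.084 (adjusted p = 0.0044), -0.40 ± 0.082 (0.00101) and -0.42 ± 0.083 (0.000286). RBM4 was called lower with Msi2 knockdown, at -0.20 (adjusted p = 0.0234), and stood at 0.048 and 0.035 in the other comparisons. HNRNPH2, which binds guanosine runs, was at 139, 114 and 134 CPM in the control libraries, 92.4, 85.6 and 85.1 CPM with Msi1 knockdown, 109, 99.7 and 116 CPM with Msi2 knockdown and 109, 107 and 109 CPM with both. It was lowest with Msi1 knockdown, and control 2 overlapped the Msi2 knockdown group. Its log2 changes were -0.55 ± 0.074 (7.83e-06), -0.25 ± 0.074 (0.0141) and -0.25 ± 0.074 (0.00884). Without control 1 the call ended for RBM4B with Msi1 knockdown at -0.22 (adjusted p = 0.077) and for HNRNPH2 with Msi2 and double knockdown at -0.20 (adjusted p = 0.116) and -0.18 (adjusted p = 0.0896), and thinning ended the RBM4B calls with Msi1 and Msi2 knockdown at -0.38 (adjusted p = 0.133) and -0.45 (adjusted p = 0.0909). RBM4B shares sequence with RBM4 and RBM14-RBM4, and HNRNPH2 with HNRNPH1, so the split of reads among them is uncertain.

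**Figure D3:**
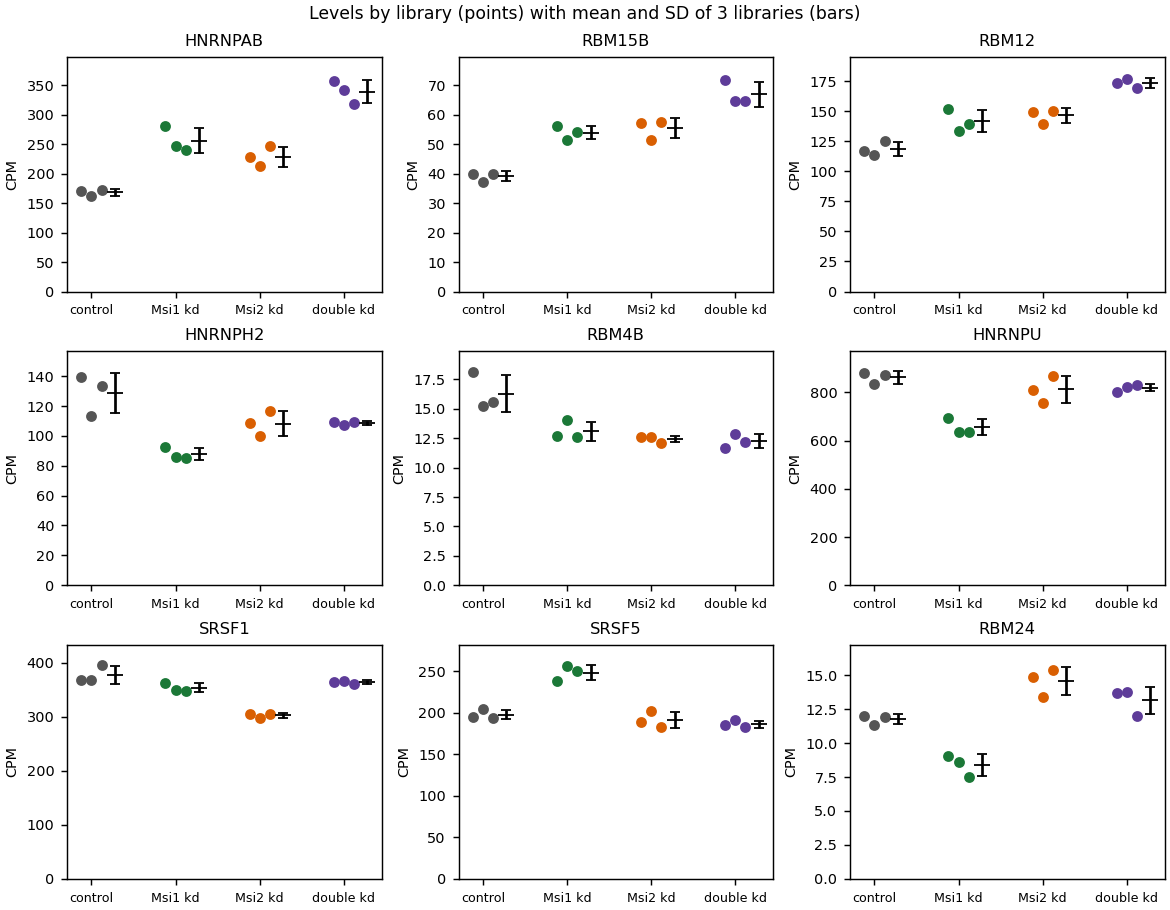
CPM of 9 splicing regulators in each library (points) with the mean and SD of 3 libraries (bars) by group, on axes that start at 0. HNRNPAB, RBM15B and RBM12 are higher in all knockdown groups, RBM4B and HNRNPH2 lower, HNRNPU and RBM24 lowest and SRSF5 highest with Msi1 knockdown, and SRSF1 lowest with Msi2 knockdown.

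Among the other A and B type hnRNPs no gene was called with Msi1 knockdown. HNRNPA1 was at 1053, 1042 and 1136 CPM in the control libraries, 1201, 1049.6 and 1030.4 CPM with Msi1 knockdown, 1015, 926 and 1093 CPM with Msi2 knockdown and 1304, 1258 and 1216 CPM with both. The double-knockdown libraries were the highest and the other groups overlapped. Its log2 change was 0.23 ± 0.081 with both (adjusted p = 0.0249) and 0.023 and -0.090 with Msi1 and Msi2 knockdown, neither called. The fit with the trend called the former at 0.16 (adjusted p = 0.00635). The call with both ended with the library trend as a covariate, at 0.027 (adjusted p = 0.735), and without control 1 or 2 or any double-knockdown library (adjusted p up to 0.12). HNRNPA2B1 was not called, at 0.0056, -0.055 and 0.13. DESeq2 called the last at 0.13 (adjusted p = 0.0304). HNRNPA0, which binds AU-rich 3′ UTRs, rose with both by 0.34 ± 0.075 (0.001), from 148 ± 7.74 to 186 ± 7.98 CPM (SD, n = 3), and HNRNPD, also called AUF1 and a factor of AU-rich decay, rose by 0.27 ± 0.072 (0.00357). The trend as a covariate turned these into 0.11 (adjusted p = 0.115) and 0.10 (adjusted p = 0.202). HNRNPDL, a relative of HNRNPD, fell with Msi2 knockdown by a log2 change of -0.29 ± 0.058 (0.000774) and with both by a log2 change of -0.18 ± 0.058 (0.0123), with all 6 of those libraries (190.2 to 214 CPM) below the control range of 230.3 to 247 CPM.

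HNRNPC was not called against control, at -0.17 (adjusted p = 0.106), -0.0031 (adjusted p = 0.984) and 0.19 (adjusted p = 0.0625). The rise with both was called by DESeq2, 0.19 (adjusted p = 0.035), in the compared groups alone, 0.18 (adjusted p = 0.0125), and with a replicate block, 0.19 (adjusted p = 0.0285). HNRNPK was not called either, at -0.18 (adjusted p = 0.0609), -0.075 (adjusted p = 0.487) and 0.071 (adjusted p = 0.445). The first of these was called by DESeq2, -0.17 (adjusted p = 0.0268), with the stricter filter, -0.16 (adjusted p = 0.0444), and with a replicate block, -0.18 (adjusted p = 0.0323). In the F and H type, all 4 members were called in the double knockdown, where 26.6% of all genes were called higher and 25.3% lower. They split: HNRNPF rose by 0.30 ± 0.071 (adjusted p = 0.00146) and HNRNPH3 by 0.30 ± 0.059 (0.000314), while HNRNPH1 changed by -0.42 ± 0.082 (0.000317) and HNRNPH2 by the value above. HNRNPH1 was at 749.7, 861 and 739.8 CPM in the control libraries, 735, 825 and 787 CPM with Msi1 knockdown, 669, 746 and 613 CPM with Msi2 knockdown and 565, 605 and 590.2 CPM with both. Its double-knockdown libraries were below all the others, and its spread inside groups was wide, with control 2 well above the other controls. HNRNPM, which acts on splicing in mesenchymal change, fell with Msi2 knockdown, at -0.20 (adjusted p = 0.0349), and rose with both, at 0.29 (adjusted p = 0.00202). HNRNPL, which binds CA repeats, and HNRNPR rose with both, at 0.24 (adjusted p = 0.00255) and 0.19 (adjusted p = 0.0207), and HNRNPLL, known for CD45 splicing in T cells, fell with Msi2 knockdown, at -0.20 (adjusted p = 0.0217). HNRNPH1, HNRNPH3 and HNRNPL stayed called in the double knockdown with the trend as a covariate, at -0.20 (adjusted p = 0.00494), 0.21 (adjusted p = 0.00188) and 0.14 (adjusted p = 0.0473), and HNRNPF, HNRNPM and HNRNPR did not, at 0.11 (adjusted p = 0.0962), 0.11 (adjusted p = 0.117) and 0.044 (adjusted p = 0.591).

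All 3 hnRNP U type genes were called lower with Msi1 knockdown, where 20.9% of all genes were. HNRNPU, a scaffold protein that ties RNA to chromatin, was at 882, 833 and 871 CPM in the control libraries, 693, 637 and 636 CPM with Msi1 knockdown, 811, 758 and 867 CPM with Msi2 knockdown and 803, 822 and 831 CPM with both. The Msi1 knockdown libraries lay below the other 9, among which the Msi2 knockdown range overlapped both control and double knockdown. Its log2 change with Msi1 knockdown was -0.40 ± 0.070 (adjusted p = 0.000166). HNRNPUL1 was at 361, 326 and 347 CPM in the control libraries, 304, 274 and 276 CPM with Msi1 knockdown, 367, 323 and 351 CPM with Msi2 knockdown and 378, 365 and 365 CPM with both, with a change of -0.28 ± 0.068 (0.0031), and HNRNPUL2 at 159, 144 and 138 CPM in the control libraries, 125, 117 and 113 CPM with Msi1 knockdown, 133, 123 and 139 CPM with Msi2 knockdown and 150.1, 141 and 132 CPM with both, with a change of -0.32 ± 0.070 (0.00137). For HNRNPUL1 the Msi1 knockdown libraries were the 3 lowest, and for HNRNPUL2 they lay below control but Msi2 knockdown 2 fell within their range. None of the 3 was called with Msi2 knockdown (-0.086, 0.011 and -0.16) or with both (-0.074, 0.10 and -0.063). With the trend as a covariate, however, HNRNPU and HNRNPUL2 were called lower with both, at -0.20 (adjusted p = 0.00278) and -0.21 (adjusted p = 0.0121), and HNRNPUL2 with Msi2 knockdown, at -0.14 (adjusted p = 0.0175). The difference itself was tested: in the double knockdown HNRNPU, HNRNPUL1 and HNRNPUL2 were above Msi1 knockdown by 0.32, 0.38 and 0.25 (largest adjusted p = 0.0048), although MSI1 was lowered in both groups. No splicing regulator was called between these groups with the trend as a covariate, where the share of all genes is not given here. The antisense gene HNRNPU-AS1, at 36.5 ± 7.45 CPM with Msi1 knockdown and 27.0 ± 3.41 CPM in control, was not called there (log2 change 0.44, adjusted p = 0.109). It was called lower in the double knockdown, at 17.1 ± 1.75 CPM (log2 change -0.67, adjusted p = 0.0187), and without stated strand its reads cannot be told apart from those of HNRNPU.

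With Msi2 knockdown 5 of the 12 SR genes were called lower and 0 higher, where 13.6% and 16.7% of all genes were called. SRSF1, which drives exon inclusion and is amplified in some tumours, was at 368, 369 and 396 CPM in the control libraries, 363, 349 and 348 CPM with Msi1 knockdown, 304, 298 and 306 CPM with Msi2 knockdown and 364, 367 and 360.1 CPM with both. The Msi2 knockdown libraries were the lowest, with no overlap with any other group, and the log2 change was -0.32 ± 0.059 (adjusted p = 0.000421), while Msi1 and double knockdown gave -0.094 and -0.053, not called. SRSF2, also known as SC35, was at 271, 299.5 and 299 CPM in the control libraries, 305, 316 and 311 CPM with Msi1 knockdown, 232, 250.5 and 236 CPM with Msi2 knockdown and 274, 277 and 278 CPM with both. It too was lowest with Msi2 knockdown, by a change of -0.28 ± 0.061 (0.00196), and not called with Msi1 or double knockdown (0.10 and -0.066). SRSF6 was at 196, 217 and 205 CPM in the control libraries, 213, 235 and 235 CPM with Msi1 knockdown, 164, 181 and 157 CPM with Msi2 knockdown and 168, 168 and 169 CPM with both. It fell both with Msi2 knockdown, -0.30 ± 0.066 (0.00171), and with both, -0.29 ± 0.066 (0.001). The latter call ended with the trend as a covariate, at -0.13 (adjusted p = 0.0584). SRSF10, a repressor of splicing when dephosphorylated, did the same at -0.26 (adjusted p = 0.00156) and -0.21 (adjusted p = 0.00422), and SRSF7 fell with Msi2 knockdown, at -0.16 (adjusted p = 0.0357).

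With Msi1 knockdown the calls were SRSF5, which rose, and SRSF4, which fell. SRSF5 was at 195, 205 and 194 CPM in the control libraries, 239, 257 and 250.0 CPM with Msi1 knockdown, 189.6, 202 and 183 CPM with Msi2 knockdown and 185, 191 and 183 CPM with both. Its 3 Msi1 knockdown libraries were the 3 highest, and the change was 0.33 ± 0.059 (adjusted p = 0.000202), with -0.050 and -0.087 in the other comparisons, not called. SRSF4 changed by -0.19 (adjusted p = 0.00901). SRSF3, the smallest SR protein and a regulator of its own splicing, was at 334, 316 and 330.2 CPM in the control libraries, 364, 320.0 and 327 CPM with Msi1 knockdown, 314, 294 and 353 CPM with Msi2 knockdown and 405, 406 and 384 CPM with both. It rose with both, 0.29 ± 0.073 (0.0029), and with the trend as a covariate this became 0.10 (adjusted p = 0.162). It was not called with Msi1 or Msi2 knockdown, at 0.045 and -0.027. The fit with the trend called it higher with Msi1 knockdown, at 0.17 (adjusted p = 0.00433). SRSF9 rose with both, at 0.21 (adjusted p = 0.031), a call lost with the trend as a covariate at -0.017 (adjusted p = 0.852). SRSF11 had the largest change of the family, at 304, 340.4 and 274 CPM in the control libraries, 278, 323 and 317 CPM with Msi1 knockdown, 255, 306 and 256 CPM with Msi2 knockdown and 198, 222 and 222 CPM with both. The double-knockdown libraries were below all others, the change was -0.52 ± 0.088 (7.33e-05), and with the trend as a covariate it was -0.25 (adjusted p = 0.00114). SRSF8 and SRSF12 were not called in any comparison with control, SRSF12 with a mean below 1 CPM in every group. SRSF8 was called lower with both in the fit with the trend, at -0.21 (adjusted p = 0.0348).

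Of the 17 tested RBM genes listed as splicing factors, 3 rose and 4 fell with Msi1 knockdown (17.6% and 23.5%), where 18.5% and 20.9% of all genes were called. With Msi2 knockdown 1 rose and 6 fell (5.88% and 35.3%), against 16.7% and 13.6% of all genes. With both, 3 rose and 4 fell (17.6% and 23.5%), against 26.6% and 25.3%. RBM25, which works with the U1 particle at 5′ splice sites, was at 203, 234 and 193 CPM in the control libraries, 257, 283 and 282 CPM with Msi1 knockdown, 197, 229 and 181 CPM with Msi2 knockdown and 179, 194 and 197 CPM with both. It was highest with Msi1 knockdown, 0.38 ± 0.084 (adjusted p = 0.00124), and was not called otherwise (-0.056 and -0.15). In the fit with the trend it was called lower with Msi2 knockdown, at -0.11 (adjusted p = 0.0298). RBM10, mutated in lung and pancreatic tumours, rose with Msi1 knockdown, 0.21 ± 0.057 (0.00609), and was not called with Msi2 knockdown (-0.11) or with both (0.12). In the fit with the trend the value with Msi2 knockdown was called, at -0.12 (adjusted p = 0.0394). Its relative RBM5, an exon repressor tied to apoptosis genes, was at 87.2, 98.7 and 85.3 CPM in the control libraries, 83.2, 94.5 and 98.5 CPM with Msi1 knockdown, 85.4, 89.8 and 71.2 CPM with Msi2 knockdown and 58.6, 60.8 and 61.9 CPM with both. The double-knockdown libraries were the 3 lowest, with a change of -0.58 ± 0.084 (1.15e-05), while Msi1 and Msi2 knockdown gave 0.022 and -0.14, not called. RBM6, the neighbour and relative of RBM5, fell with both, at -0.24 (adjusted p = 0.00475). With the trend as a covariate RBM5 was called lower in all 3 knockdowns, at -0.15 (adjusted p = 0.0182), -0.20 (adjusted p = 0.000533) and -0.32 (adjusted p = 0.000142), and RBM6 was at -0.12 (adjusted p = 0.184) with both. The antisense gene RBM5-AS1 fell with RBM5 in the double knockdown, by 0.99 on the log2 scale (adjusted p = 0.0383), from 1.12 ± 0.300 to 0.537 ± 0.193 CPM, and reads of the pair cannot be told apart.

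RBM39, a relative of the splice site factor U2AF2 and the protein degraded by indisulam, was at 336, 371 and 323 CPM in the control libraries, 326, 354 and 340.4 CPM with Msi1 knockdown, 279, 313 and 261 CPM with Msi2 knockdown and 234, 257 and 245 CPM with both. It was lower with Msi2 knockdown, -0.27 ± 0.074 (adjusted p = 0.009), and lower again with both, -0.48 ± 0.075 (2.58e-05), where no library overlapped another group. With Msi1 knockdown it was at -0.014, not called. Fitted with the trend it was called lower there too, at -0.14 (adjusted p = 0.0219). RBM24, a splicing factor best known in muscle, moved in opposite directions in the single knockdowns, at 11.96, 11.4 and 11.95 CPM in the control libraries, 9.08, 8.58 and 7.48 CPM with Msi1 knockdown, 14.8, 13.4 and 15.4 CPM with Msi2 knockdown and 13.7, 13.8 and 11.995 CPM with both. The Msi1 knockdown libraries were below and the Msi2 knockdown libraries above the control range, with log2 changes of -0.48 ± 0.095 (0.000463) and 0.31 ± 0.089 (0.0124). The call with Msi1 knockdown ended in thinned libraries, at -0.17 (adjusted p = 0.601), and that with Msi2 knockdown without control 2, at 0.27 (adjusted p = 0.0631). RBM47 and RBM42 fell with Msi1 knockdown, at -0.31 (adjusted p = 0.00944) and -0.24 (adjusted p = 0.0271), and RBM42 rose with both, at 0.30 (adjusted p = 0.00435). Both RBM42 calls ended with the trend as a covariate, at -0.10 (adjusted p = 0.222) and 0.082 (adjusted p = 0.406). RBM22 and RBM17, which are spliceosome proteins, fell with Msi2 knockdown, at -0.23 (adjusted p = 0.00392) and -0.22 (adjusted p = 0.00602), and RBM41 did so at -0.27 (adjusted p = 0.023). RBM14, a coactivator that also affects splicing, rose with Msi1 knockdown, 0.26 (adjusted p = 0.00136), and with both, 0.41 (adjusted p = 8.47e-06), and was at 0.042 with Msi2 knockdown. RBM23, a relative of RBM39, rose with both, at 0.19 (adjusted p = 0.0205). This call ended with the trend as a covariate, at 0.086 (adjusted p = 0.371).

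Of the 19 tested RBM genes with other roles, 3 rose and 2 fell with Msi1 knockdown (15.8% and 10.5%), where 18.5% and 20.9% of all genes were called. With Msi2 knockdown 3 rose and 2 fell (15.8% and 10.5%), against 16.7% and 13.6% of all genes. With both, 7 rose and 4 fell (36.8% and 21.1%), against 26.6% and 25.3%. RBM38, a p53 target that binds the mRNA of CDKN1A, was at 31.9, 26.4 and 29.6 CPM in the control libraries, 27.6, 24.2 and 25.8 CPM with Msi1 knockdown, 29.03, 25.1 and 31.5 CPM with Msi2 knockdown and 41.2, 38.7 and 35.6 CPM with both. The double-knockdown libraries were the 3 highest, 0.40 ± 0.089 (adjusted p = 0.00107), the other groups overlapped (-0.18 and -0.040, not called), and with the trend as a covariate the change was 0.12 (adjusted p = 0.245). RBM3, the cold-inducible protein, was not called in any comparison with control, at -0.11, -0.041 and 0.035, and stayed between 262 and 310.2 CPM. The nucleolar proteins RBM19 and RBM28 rose with both, at 0.21 (adjusted p = 0.00512) and 0.22 (adjusted p = 0.00384), and RBM19 also rose with Msi1 knockdown, 0.28 (adjusted p = 0.00099), while RBM34, the third nucleolar member, was not called (-0.13, -0.12 and 0.048). RBM26 and RBM27 belong to nuclear exosome targeting. RBM26 fell with both, -0.35 (adjusted p = 0.000258), and RBM27 fell with Msi1 knockdown, -0.22 (adjusted p = 0.0113). RBM7 of the same pathway rose with Msi2 knockdown by 0.19 (adjusted p = 0.0498), next to the threshold, and was not called by DESeq2, 0.18 (adjusted p = 0.0691), or in 10 of the 12 fits that left out 1 library. RBM8A, part of the exon junction complex, fell with Msi2 knockdown, -0.25 (adjusted p = 0.0187), and rose with both, 0.20 (adjusted p = 0.0348), the latter lost with the trend as a covariate, at -0.027 (adjusted p = 0.757).

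RBM43, whose role is not settled, was at 14.1, 13.3 and 13.4 CPM in the control libraries, 10.6, 10.6 and 8.97 CPM with Msi1 knockdown, 13.5, 13.4 and 14.5 CPM with Msi2 knockdown and 10.1, 11.8 and 10.9 CPM with both. It was lower with Msi1 knockdown, -0.43 ± 0.089 (adjusted p = 0.000622), and with both, -0.33 ± 0.086 (0.00385), where its libraries did not overlap control, and the Msi2 knockdown libraries overlapped the control range (0.014). RBM45, described in nervous tissue, fell with Msi2 knockdown, -0.28 ± 0.075 (0.00749), and with both, -0.25 ± 0.075 (0.00888), to 10.8 to 12.3 CPM in those 6 libraries from 13.3 to 13.9 CPM in control. In libraries thinned to the smallest total, calls ended for RBM43 with Msi1 knockdown, -0.36 (adjusted p = 0.175), and with both, -0.22 (adjusted p = 0.39), and for RBM45 with Msi2 knockdown, -0.12 (adjusted p = 0.707), and with both, -0.23 (adjusted p = 0.332). RBM33 fell and RBM18 rose with both, at -0.24 (adjusted p = 0.00874) and 0.28 (adjusted p = 0.0075), and with the trend as a covariate both calls ended, at -0.055 (adjusted p = 0.553) and 0.087 (adjusted p = 0.404).

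Several smaller calls were lost when 1 library was left out, some of them whichever of several libraries it was. With Msi1 knockdown the fall of RBM27 was lost without control 1 or 3 or Msi1 knockdown 2 or 3 (adjusted p 0.0515 to 0.0922), that of RBM42 without control 1 or 3, Msi1 knockdown 2 or 3 or Msi2 knockdown 1 (adjusted p 0.0524 to 0.21), that of RBM47 without Msi1 knockdown 2 (adjusted p = 0.08) and that of SRSF4 without control 1 or Msi1 knockdown 2 or 3 (adjusted p 0.0558 to 0.0651). With Msi2 knockdown the fall of SRSF7 was lost without control 1 or 2 or Msi2 knockdown 1, 2 or 3 (adjusted p 0.0552 to 0.118), that of HNRNPM without control 1 or 3 or Msi2 knockdown 1 or 2 (adjusted p 0.0537 to 0.153) and that of HNRNPLL without control 1 or 3 or Msi2 knockdown 1 or 2 (adjusted p 0.0758 to 0.099). The fall of RBM4 with Msi2 knockdown was lost without control 3 or Msi2 knockdown 1 or 2 (adjusted p 0.0614 to 0.104), that of RBM8A without control 1 or 3 or Msi2 knockdown 1 or 2 (adjusted p 0.054 to 0.0735) and that of RBM41 without control 1 or Msi2 knockdown 2 or 3 (adjusted p 0.0519 to 0.146). HNRNPH2 with Msi2 knockdown was also lost without control 3 or Msi2 knockdown 2. In the double knockdown the rise of HNRNPR was lost without control 1, 2 or 3 or double knockdown 1, 2 or 3 (adjusted p 0.0505 to 0.0984), that of SRSF9 without control 1, 2 or 3 or double knockdown 1 or 2 (adjusted p 0.0538 to 0.155) and that of RBM8A without control 1 or 2, double knockdown 1 or 2, Msi1 knockdown 2 or Msi2 knockdown 1 (adjusted p 0.0519 to 0.17). The rise of RBM23 was lost without control 2 or 3 or double knockdown 1 or 2 (adjusted p 0.0628 to 0.101), that of RBM18 without control 1 or 2 (adjusted p 0.0503 to 0.0912) and the fall of HNRNPA1L2 without double knockdown 3 (adjusted p = 0.0619). Thinning ended further calls, with Msi1 knockdown those of RBM10 0.26 (adjusted p = 0.0622), RBM14 0.21 (adjusted p = 0.115), RBM27 -0.26 (adjusted p = 0.0531), RBM42 -0.16 (adjusted p = 0.395) and RBM47 -0.24 (adjusted p = 0.332). With Msi2 knockdown it ended those of RBM4 -0.25 (adjusted p = 0.0577), RBM7 0.22 (adjusted p = 0.24), RBM22 -0.24 (adjusted p = 0.0644), RBM41 -0.26 (adjusted p = 0.314) and SRSF7 -0.20 (adjusted p = 0.0643). In the double knockdown it ended those of HNRNPA1 0.20 (adjusted p = 0.0601), HNRNPR 0.20 (adjusted p = 0.0742), SRSF9 0.17 (adjusted p = 0.139), RBM6 -0.23 (adjusted p = 0.0658) and RBM8A 0.15 (adjusted p = 0.21). Further rises with both that it ended were RBM18 0.27 (adjusted p = 0.0926), RBM19 0.19 (adjusted p = 0.132), RBM23 0.21 (adjusted p = 0.155) and RBM28 0.18 (adjusted p = 0.0992). The stricter filter ended the calls with both of HNRNPR 0.13 (adjusted p = 0.0514), SRSF9 0.15 (adjusted p = 0.0703), RBM8A 0.15 (adjusted p = 0.0818) and RBM23 0.13 (adjusted p = 0.055). With no filter on low counts the calls lost were those with Msi2 knockdown of HNRNPM -0.19 (adjusted p = 0.0626), SRSF7 -0.15 (adjusted p = 0.114) and RBM7 0.20 (adjusted p = 0.0519). In the compared groups alone SRSF7 and RBM7 also lost theirs, at -0.17 (adjusted p = 0.0608) and 0.19 (adjusted p = 0.0792), as did RBM7 with RLE factors, at 0.18 (adjusted p = 0.0629).

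**Figure D4:**
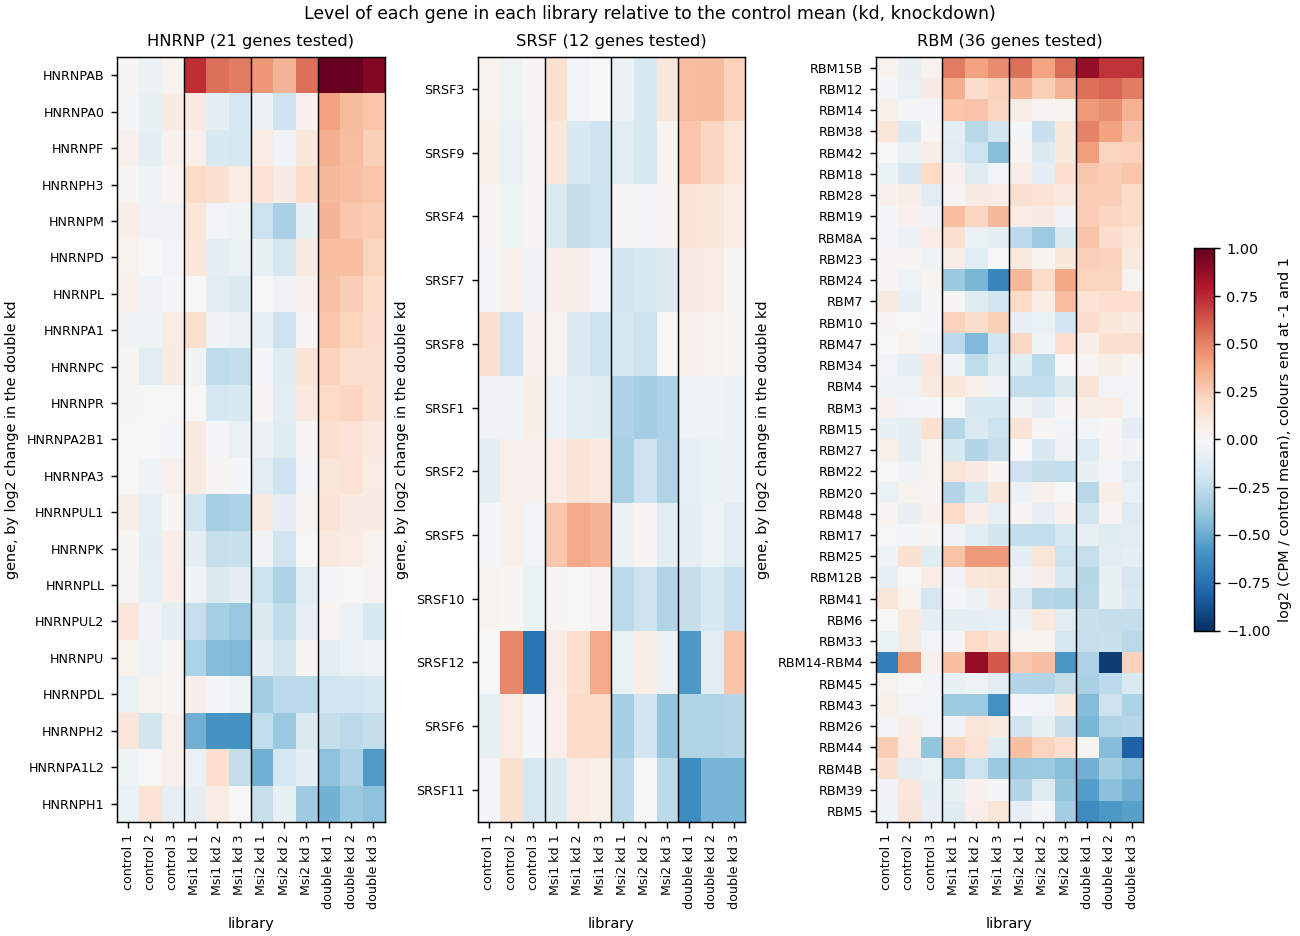
Log2 ratio of CPM to the control mean for each of the 69 tested splicing regulators (rows) in each of the 12 libraries (columns), one panel per family, with genes ordered by the change in the double knockdown and colours ending at -1 and 1. HNRNPAB is the deepest red in the double-knockdown columns, the Msi2 knockdown columns are mostly blue in the SRSF panel, and SRSF12 and RBM14-RBM4, with few counts, vary between libraries of the same group.

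The single knockdowns were then compared with each other. Between Msi2 and Msi1 knockdown 10 splicing regulators were higher and 20 lower of 69, where 22.3% and 18.9% of all genes were called. RBM24 had the largest difference, 0.79 ± 0.088 (adjusted p = 8.16e-07), followed among those higher by RBM43, 0.45 ± 0.083 (0.000264), and RBM47, 0.42 ± 0.084 (0.000517). Lower with Msi2 than with Msi1 knockdown were SRSF6, -0.45 ± 0.065 (2.03e-05), RBM25, -0.44 ± 0.083 (0.000331), and SRSF5, -0.38 ± 0.059 (4.16e-05). Of the 12 SR genes 6 were lower and 1, SRSF4, was higher, at 0.20. SRSF2 was at -0.38 (adjusted p = 6.17e-05). HNRNPU and HNRNPUL1 were higher with Msi2 than with Msi1 knockdown, at 0.31 and 0.29. The 10 higher calls became 15 at most when 1 library was left out and 6 in thinned libraries. Shares of all genes in those fits are not given here.

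The double knockdown was also set against each single one. Against Msi1 knockdown 33 splicing regulators were higher and 16 lower (47.8% and 23.2%), where 29.9% and 26.2% of all genes were called. Among called genes with at least 5 CPM, higher by most were RBM24, 0.65 ± 0.088 (adjusted p = 1.42e-05), RBM38, 0.58 ± 0.087 (3.60e-05), and RBM42, 0.54 ± 0.080 (2.93e-05), and lower by most RBM5, -0.61 ± 0.083 (1.35e-05), RBM25, -0.53 ± 0.083 (5.06e-05), and SRSF11, -0.51 ± 0.088 (9.95e-05). Of 21 HNRNP genes 15 were higher and 3 lower. Against Msi2 knockdown 28 were higher and 8 lower (40.6% and 11.6%), against 22.7% and 22.5% of all genes. Here, again among called genes with at least 5 CPM, HNRNPAB, 0.57 ± 0.072, HNRNPM, 0.49 ± 0.069 (2.56e-05), and RBM8A, 0.45 ± 0.075 (0.000119), were higher by most and RBM5, -0.44 ± 0.082 (0.000285), SRSF11, -0.35 ± 0.087 (0.00349), and RBM43, -0.34 ± 0.081 (0.00222), lower by most. Fitted with the trend as a covariate, no splicing regulator was called against Msi1 knockdown, and 10 were higher and 4 lower against Msi2 knockdown. The shares of all genes called in that fit are not given here, so these counts are not a result about the splicing regulators. Of the genes just named, RBM8A, RBM5 and SRSF11 lost the call against Msi2 knockdown in that fit, at 0.17 (adjusted p = 0.0588), -0.12 (adjusted p = 0.257) and -0.020 (adjusted p = 0.873). In thinned libraries 19 were higher against Msi1 knockdown and 3 lower against Msi2 knockdown, and the 8 lower against Msi2 knockdown became 5 without double knockdown 1 or 3, 4 without Msi2 knockdown 1 and 3 without Msi2 knockdown 2. Shares of all genes in the thinned and left-out fits are not given here either.

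Non-additivity asks whether knocking down both genes gave more or less than the single knockdowns add up to. It is the double knockdown's log2 change less the 2 single log2 changes. It was called above 0 for 27 splicing regulators (39.1%) and below 0 for 5 (7.25%), where 21.3% and 19.1% of all genes were called, and its median was 0.13 against 0.0082 over all genes. Of 21 HNRNP genes 14 were above 0 and none below. The 3 U-type genes (0.36 to 0.42) and all 5 of HNRNPK, HNRNPL, HNRNPLL, HNRNPM and HNRNPR (0.29 to 0.47) were among them. Among called genes with at least 5 CPM the largest values were RBM38, 0.62 ± 0.13 (adjusted p = 0.00108), HNRNPH2, 0.56 ± 0.10 (0.000548), and RBM42, 0.53 ± 0.11 (0.00153), and the lowest RBM25, -0.47 ± 0.12 (0.00448), RBM5, -0.46 ± 0.12 (0.00465), and SRSF5, -0.36 ± 0.084 (0.0025). The 3 genes that rose in every knockdown were not called (-0.040, -0.19 and -0.019 for HNRNPAB, RBM15B and RBM12). Fitted with the trend, 0 were above 0 and 2 below, the latter HNRNPAB and RBM15B (-0.41 (adjusted p = 0.00562) and -0.45 (adjusted p = 0.0113)), and in thinned libraries 13 and 3. The 27 became 13 without Msi1 knockdown 2, 14 without Msi1 knockdown 3 or Msi2 knockdown 2, 16 without control 3 and 17 without control 1 or double knockdown 2, and the 5 became 3 without control 1 or Msi1 knockdown 2 and 8 without Msi2 knockdown 3. Shares of all genes in the trend, thinned and left-out fits are not given here, so these shifts are not a result about the splicing regulators.

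The splicing regulators differed in how they followed the library trend. Of 9816 genes above 3 log2 CPM, SRSF11, RBM5, RBM25, HNRNPH1 and RBM39 loaded on it at percentiles 94.4, 94.1, 93.8, 90.3 and 87.2, and RBM38, SRSF8, HNRNPC, RBM8A and HNRNPA0 at 4.39, 5.08, 7.36, 8.23 and 8.38. These were picked as the highest and lowest of the splicing regulators, so percentiles near the ends follow from the choice. In control 2, for example, SRSF11 was at 340.4 CPM while the other controls had 304 and 274 CPM, and RBM38 was at 26.4 CPM while they had 31.9 and 29.6 CPM. The genes of the high end that fell in the double knockdown were SRSF11, RBM5, HNRNPH1 and RBM39, and those of the low end that rose were RBM38, RBM8A and HNRNPA0. Fitted with the trend, the 4 falls stayed called, at between -0.20 and -0.32, and the 3 rises did not, at 0.12, -0.027 and 0.11. The same fit called HNRNPH1, SRSF11 and RBM6 lower with Msi1 knockdown, at -0.15 (adjusted p = 0.0112), -0.18 (adjusted p = 0.00425) and -0.18 (adjusted p = 0.00989). It called HNRNPA3, HNRNPH3, HNRNPM and RBM8A higher there, at 0.12 (adjusted p = 0.0333), 0.20 (adjusted p = 0.000535), 0.12 (adjusted p = 0.0403) and 0.15 (adjusted p = 0.014). With Msi2 knockdown it called HNRNPH1, SRSF11 and RBM26 lower, at -0.26 (adjusted p = 3.10e-06), -0.23 (adjusted p = 6.48e-05) and -0.20 (adjusted p = 0.000363), and HNRNPH3 higher, at 0.15 (adjusted p = 0.00192). With both it called RBM17 lower, at -0.18 (adjusted p = 0.0139). The trend was computed from all genes, these included, and its part in the results cannot be told apart from that of the double knockdown.

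**Figure D5:**
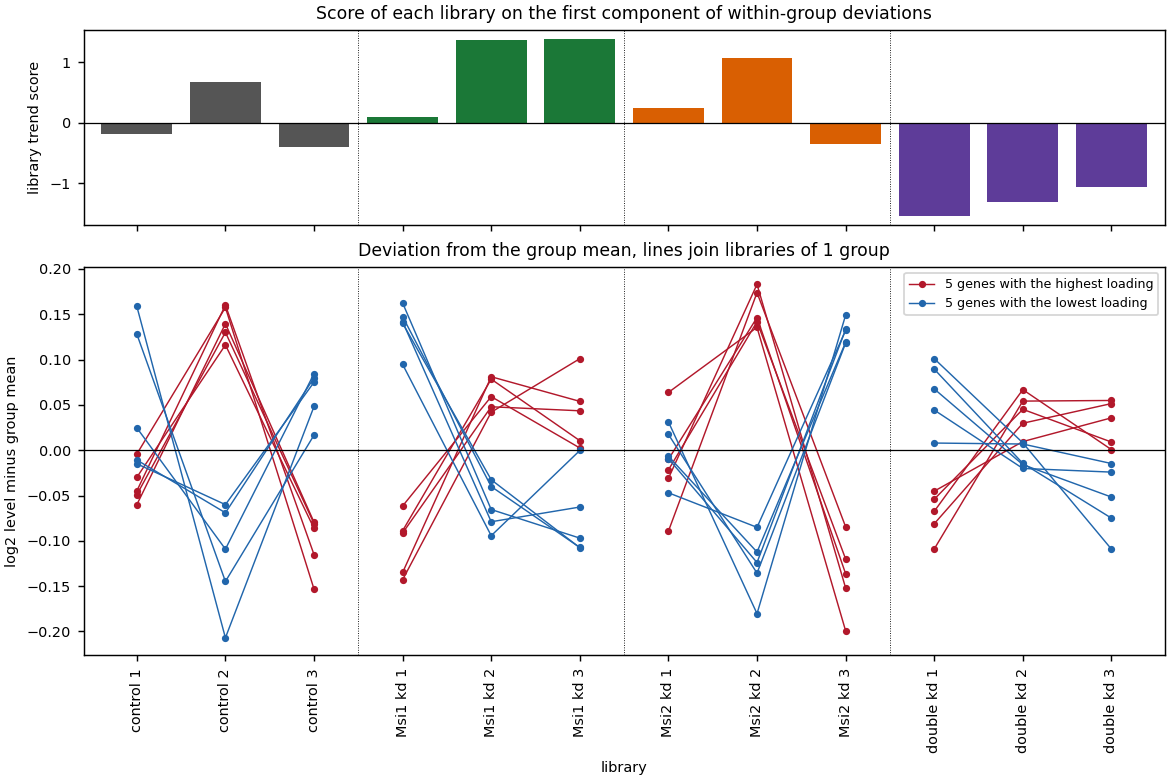
Top, score of each library on the first component of within-group deviations (bars, 1 per library, coloured by group). Bottom, log2 level minus the group mean for the 5 splicing regulators with the highest loading (red) and the 5 with the lowest (blue). The sets lie on opposite sides of 0 in every library except control 1, Msi2 knockdown 1 and double knockdown 2. They were picked by their loading on this component, so such a separation follows from the choice. The double-knockdown libraries have the 3 lowest scores, -1.54 to -1.06.

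Of 77 other splicing factors listed for comparison (core spliceosome proteins, kinases of SR proteins, and regulators such as PTBP1, MBNL1 and TIA1), 75 were tested. With Msi1 knockdown 10 were higher and 19 lower, where 18.5% and 20.9% of all genes were called, with Msi2 knockdown 9 and 10 (16.7% and 13.6%), and with both 23 and 18 (26.6% and 25.3%). Their median log2 changes were -0.038, -0.0071 and 0.079. TIA1, a regulator that helps U1 bind weak 5′ splice sites, fell with both by a log2 change of -1.14 ± 0.088 (adjusted p = 7.27e-09) and with Msi2 knockdown by a log2 change of -0.55 ± 0.087 (8.30e-05). SNRPB and SNRPC, subunits of the spliceosomal small nuclear ribonucleoproteins, rose with both by 0.67 ± 0.075 (6.70e-07) and 0.74 ± 0.089 (1.56e-06). RBFOX2 fell with Msi1 knockdown, -0.40 ± 0.067 (0.000104), as did SRPK2, a kinase of SR proteins, -0.38 ± 0.067 (0.000159), while ZRANB2 rose, 0.47 ± 0.080 (0.000106). MBNL2 and TRA2A fell with Msi2 knockdown, -0.47 ± 0.061 (1.04e-05) and -0.38 ± 0.057 (4.86e-05).

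The 6 splicing regulators that were not tested had few or no counts. HNRNPCL1 had 34 counts over the 12 libraries, HNRNPCL4 had 8, HNRNPCL2 had 5, RBM46 had 3 and RBM11 had 1, and HNRNPCL3 had 0. HNRNPCL genes are near-identical copies of HNRNPC, so even these counts may be reads of HNRNPC. The values of HNRNPA1 and HNRNPA1L2, of RBM4, RBM4B and RBM14-RBM4, of HNRNPH1 and HNRNPH2 and of SRSF2 and SRSF8 likewise depend on how shared reads were assigned. HNRNPA1L2 fell with both by 0.41 on the log2 scale (adjusted p = 0.0193). That call ended with the trend as a covariate, at -0.42 (adjusted p = 0.0731), and in thinned libraries, at -0.0086 (adjusted p = 0.989).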

How the data were processed

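The deposited values are estimated counts per gene in whole numbers, made by the authors from RNA-seq of the 12 libraries. The submitters' processing notes name kallisto 0.42.1, CASAVA 1.4 and build hg19, without their roles. Transcript set, strand setting and filters were not given in the sources used here. The program kallisto splits reads shared by transcripts, so near-identical genes are uncertain. The table holds no coordinates.

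Tests used edgeR 4.0.16 (R 4.3.3): filterByExpr (minimum count 10) by group, TMM factors, 1 model of all 12 libraries (8 residual degrees of freedom), a robust quasi-likelihood test, two-sided, and Benjamini-Hochberg adjustment over 15021 genes at 0.05. SE is the log2 change over the square root of its F statistic. Exact permutation of 3 libraries against 3 cannot go below p = 0.1. The library trend used log2 CPM with 2 counts added. Alternatives were DESeq2 1.42.0, RLE factors, other filters, a replicate block, the trend as covariate, thinning and leaving out each library. Scripts were tested on simulated data. Totals limit precision most in control 3.

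The genes and lists were chosen with earlier results of these data known. Named by rule in comparisons with control were 13 fixed genes (such as HNRNPA1, SRSF1 and RBM5) and the 6 largest called rises and 6 largest falls with at least 5 CPM, and 3 of each elsewhere. Genes named beyond that were chosen by role after their values were seen. Sequences come from RefSeq (GRCh38.p14) and GENCODE 29.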

Additional observations from a re-analysis of the deposited data

Results flagged for a closer look

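For 32 splicing regulators the change in the double knockdown differed from the sum of the single changes by the edgeR test of non-additivity. Of the 69 tested, 39.1% were called above 0 and 7.25% below, where 21.3% and 19.1% of all genes were. Above 0 on the log2 scale were, among hnRNP genes, HNRNPH2 (0.56), HNRNPM (0.47), HNRNPA0 (0.46), HNRNPUL2 (0.42), HNRNPU (0.41), HNRNPUL1 (0.36) and HNRNPC (0.36), and at smaller size HNRNPF (0.34), HNRNPD (0.34), HNRNPK (0.33), HNRNPL (0.32), HNRNPLL (0.30), HNRNPA1 (0.29) and HNRNPR (0.29). Among SR genes SRSF9 (0.36), SRSF1 (0.36), SRSF4 (0.29) and SRSF3 (0.27) were above 0 and SRSF5 (-0.36) and SRSF11 (-0.34) below. Among RBM genes RBM38 (0.62), RBM42 (0.53), RBM8A (0.44), RBM24 (0.34), RBM47 (0.32), RBM4B (0.30), RBM34 (0.30), RBM27 (0.24) and RBM17 (0.22) were above 0 and RBM25 (-0.47), RBM5 (-0.46) and RBM33 (-0.31) below. None of the 32 was called with the library trend as a covariate, a fit whose share of all genes is not given here.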

How the results depend on the processing

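Counts of called splicing regulators were recomputed with DESeq2, RLE scaling, no filter, a stricter filter (5 CPM in 3 libraries), the compared groups alone, a replicate block, the library trend as a covariate, thinned libraries, and without each of the 12 libraries in turn. Under the first 6 of these each count stayed within 1.5 times its value in the report, where non-additivity uses all 4 groups and so was not run in compared groups alone. With the trend as a covariate the counts of higher genes became 14 for Msi1 knockdown, 8 for double knockdown, 0 for double against Msi1 knockdown, 10 for double against Msi2 knockdown and 0 for non-additivity, and the counts of lower genes became 0, 4 and 2 in the last 3. In thinned libraries the higher counts became 13 for double knockdown, 6 for Msi2 against Msi1 knockdown, 19 for double against Msi1 knockdown and 13 for non-additivity, and the lower counts 5 for Msi1 knockdown, 3 for double against Msi2 knockdown and 3 for non-additivity, where the depth of each library but 1 was reduced. Leaving out 1 library, higher and lower counts ran from 8 to 9 and 7 to 14 for Msi1 knockdown, 3 to 5 and 11 to 19 for Msi2 knockdown, 15 to 22 and 14 to 17 for double knockdown, 8 to 15 and 17 to 20 for Msi2 against Msi1 knockdown, 22 to 34 and 12 to 18 for double against Msi1 knockdown, 20 to 30 and 3 to 9 for double against Msi2 knockdown, and 13 to 28 and 3 to 8 for non-additivity. Shares of all genes moved as well. Those lower with Msi1 knockdown went from 20.9% to 11.1% in thinned libraries and to between 14.3% and 21.5% without 1 library. For comparisons between knockdowns and for non-additivity, shares of all genes in the trend, thinned and left-out fits are not given here. Apart from the trend and thinning, the cause of the shifts in these counts was not tested.

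Replicate numbers are shared between groups, but of 18 same-numbered pairs of libraries 10 had deviations correlated above 0.1, in a range of -0.54 to 0.70. Between control and Msi2 knockdown all 3 were above 0.1 (0.185, 0.684 and 0.412), so the numbers may pair those groups, and in no other pair of groups were all 3. The block took the falls with Msi2 knockdown from 17 to 20, while the share of all genes went from 13.6% to 14.9%. It changed no call there of a gene named by rule. With a replicate block the counts were 9 higher and 12 lower for Msi1, 5 higher and 20 lower for Msi2, 22 higher and 16 lower for double knockdown, 12 higher and 21 lower for Msi2 against Msi1, 33 higher and 16 lower for double against Msi1, 30 higher and 9 lower for double against Msi2 knockdown and 27 higher and 6 lower for non-additivity. Of all genes 20% and 22.2% were then called higher and lower for Msi1, and 18.2% and 14.9% for Msi2. Shares for the other comparisons are not given here.

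For some named genes the sign changed. With the trend as a covariate RBM5 with Msi1 knockdown was -0.15, HNRNPC, SRSF3 and RBM38 with Msi2 knockdown 0.046, 0.0085 and 0.0031, HNRNPC, HNRNPK, SRSF2, RBM3, RBM8A and SRSF9 with both -0.039, -0.10, 0.0027, -0.082, -0.027 and -0.017, and the non-additivity of RBM25 and RBM5 0.016 and 0.037. In thinned libraries RBM39 with Msi1 knockdown was 0.016, RBM38 with Msi2 knockdown 0.0097 and RBM3 with both -0.045. With the stricter filter RBM39 was 0.0018 and RBM3 -0.017, and with no filter HNRNPC with Msi2 knockdown was 0.0053. Leaving out 1 library, log2 changes that crossed 0 ran from -0.049 to 0.077 for HNRNPA1, -0.036 to 0.052 for HNRNPA2B1, -0.013 to 0.085 for SRSF3, -0.015 to 0.093 for RBM5 and -0.049 to 0.046 for RBM39 with Msi1 knockdown, -0.070 to 0.052 for HNRNPC, -0.10 to 0.027 for SRSF3 and -0.13 to 0.043 for RBM38 with Msi2 knockdown, and -0.0013 to 0.056 for RBM3 with both. None of these was called in the report except RBM8A and SRSF9 with both and the non-additivity of RBM25 and RBM5. Over all named genes and alternatives, 2386 values kept their direction and side of the threshold, 151 lost a call, 20 gained one and 36 changed sign.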
